A study of Mus musculus with 12 samples.

Results

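The collagen genes were taken as all gene symbols made of Col, a number, the letter a and a second number, which 44 of the 23183 symbols in the tables met. Of these, 11 encode fibrillar collagens, 6 the type IV chains of basement membranes, 3 collagens of the basement membrane zone, 6 the type VI chains of beaded filaments, 9 fibril-associated collagens with interrupted triple helices (FACITs), 3 short-chain collagens, 4 transmembrane collagens and 2 others. A collagen molecule is a trimer of chains wound into a triple helix. Fibrillar collagens are secreted as procollagens, trimmed and cross-linked into the fibers that stiffen scars, whereas type IV collagen forms the sheet under epithelia and endothelia. In the kidney the α1 and α2 chains of type IV collagen occur in every basement membrane, and the α3, α4 and α5 chains form the mature network of the glomerular filter.

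RNA was sequenced from the kidney cortex of male C57BL/6 mice, 6 to 7 weeks old, on day 7 after unilateral ureteral obstruction (UUO), an operation that closes the ureter of a single kidney and leaves the contralateral kidney (CL) as the control. Acot12+/+ (wildtype in the labels) and Acot12-/- mice each gave 3 CL and 3 UUO libraries, so that 4 groups held 12 libraries. ACOT12 is an enzyme that hydrolyzes acetyl-CoA, and the Acot12-/- mice carried a germline mutation made with an RNA-guided nuclease in all their cells. The controls were the other kidneys of operated mice and not kidneys of unoperated mice, and nothing in the labels says that the libraries of a group came from separate animals, so the p-values measure the spread between these libraries.

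Levels are in FPKM (fragments for each kilobase of a transcript, relative to library depth), which can be set side by side between genes. Low values gave an approximate depth of 11500000 to 15300000 fragments in the CL and 16900000 to 20900000 in the UUO libraries. Acot12 itself stood at 73.8, 52.7 and 78.1 FPKM in the CL libraries and 9.98, 16.7 and 21.2 FPKM in the UUO libraries of Acot12+/+ mice, against 9.14, 9.01 and 6.80 FPKM (CL) and 3.28, 1.80 and 3.86 FPKM (UUO) for the Acot12-/- mice, lower in every Acot12-/- library than in any Acot12+/+ library of the same kidney, although transcripts of the mutated gene were still present. Correlations of log2 values between libraries of a group ran from 0.966 to 0.994, and the lowest, 0.966 and 0.972, were those of Acot12-/- CL replicate 2. Proximal tubule markers, which define the cortex, summed to 1362 to 1914 FPKM in Acot12+/+ CL and 1787 to 3457 FPKM in Acot12-/- CL kidneys, and adipocyte markers to at most 3.29 FPKM in any library.

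Tests were run on genes that reached 1 FPKM in 3 or more libraries, and calls required that the p from limma on log2(FPKM + 1), adjusted after Benjamini and Hochberg for the 13243 genes tested, be under 0.05. Of the 44 collagen genes, 23 were tested and 21 were not, and 3 of those tested (Col5a3, Col12a1 and Col17a1) reached 1 FPKM in UUO libraries alone. Of the 21, 16 had a mean under 0.5 FPKM in all 4 groups and 5 (Col4a6, Col6a4, Col7a1, Col8a2 and Col23a1) passed 0.5 FPKM in some group. The plot of levels by library shows how far the tested genes are spread.

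**Figure D1:**
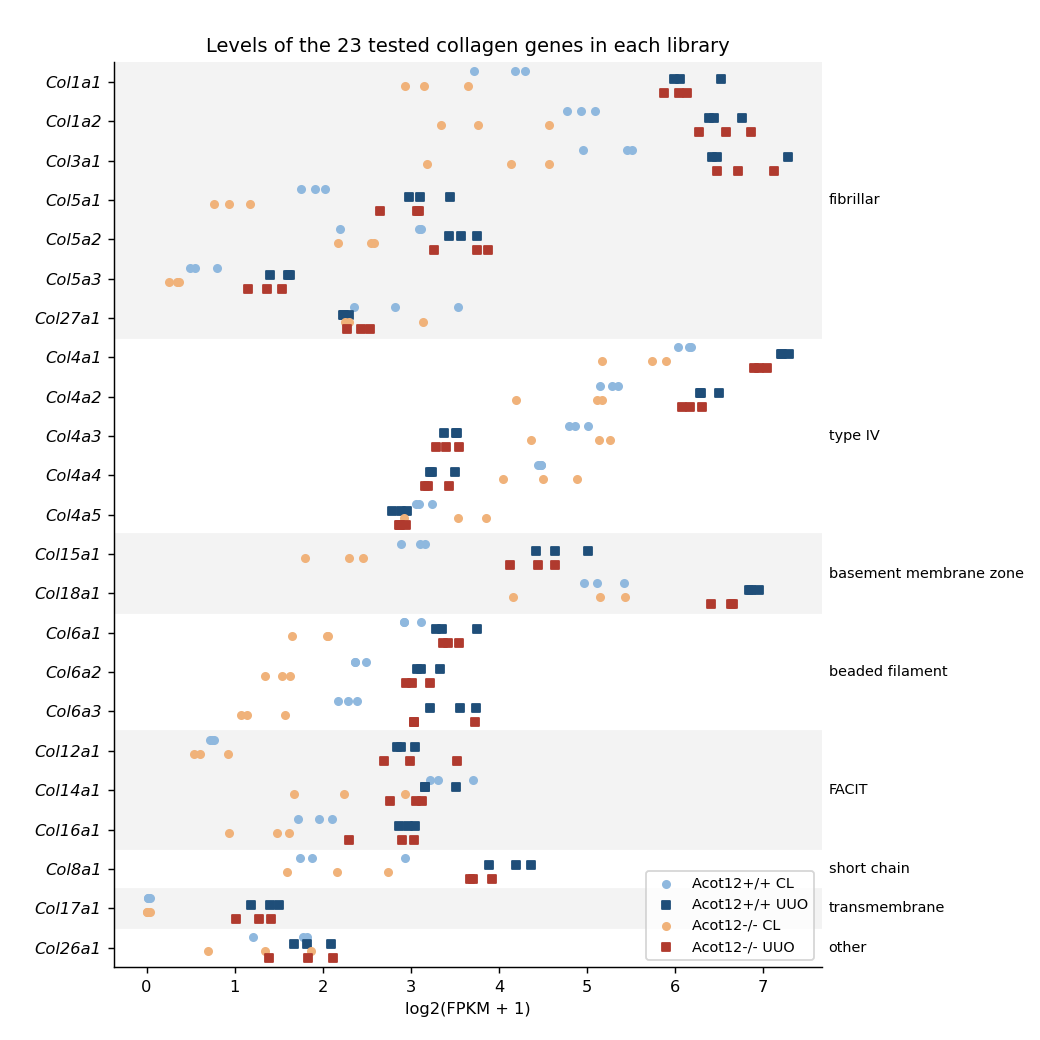
The log2(FPKM + 1) of the 23 tested collagen genes (rows, by class) in each of the 12 libraries, with circles for CL and squares for UUO kidneys, in blue for Acot12+/+ and in orange and red for Acot12-/-. Squares lie to the right of circles for most genes, and to their left for Col4a3 and Col4a4.

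Collagen transcripts were more abundant in every UUO than in every CL library. The summed level of all 44 genes was 345 ± 21.2 FPKM (SD, n = 3) in Acot12+/+ CL and 774 ± 101 in Acot12+/+ UUO kidneys, a ratio of 2.24. In Acot12-/- mice it was 245 ± 16.4 FPKM in CL and 697 ± 59.0 FPKM in UUO kidneys, a ratio of 2.85. In the Acot12+/+ CL kidneys the highest means were those of Col4a1 at 68.9, Col3a1 at 39.2, Col4a2 at 37.4, Col18a1 at 35.2 and Col1a2 at 29.6 FPKM. In the Acot12+/+ UUO kidneys they were those of Col4a1 at 149.7, Col18a1 at 117, Col3a1 at 109, Col1a2 at 91.7 and Col4a2 at 81.3 FPKM. Col4a1 lay above the others in the CL libraries. The libraries of Col3a1, Col4a2, Col18a1 and Col1a2 overlapped with those of their neighbours in the CL kidneys. Among Col3a1, Col4a2 and Col18a1 the order differed between the CL libraries and is not set. In the UUO kidneys those of Col4a1, Col18a1 and Col1a2 each overlapped with those of Col3a1, and Col4a2 with Col1a2. Within each Acot12+/+ UUO library Col4a1 was the highest, Col18a1 lay above Col1a2 and Col1a2 above Col4a2. The place of Col3a1 differed between these libraries, so its rank there is not set.

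Of the 23 tested collagen genes, 17 were higher and 2 lower in UUO than in CL kidneys of Acot12+/+ mice, beside 47.5% of all tested genes called, 23.6% higher and 23.9% lower. In Acot12-/- mice 18 were higher and 3 lower, beside 53.7% of all tested genes, 26.6% higher and 27.2% lower. Higher in both genotypes were 17 genes and lower in both were Col4a3 and Col4a4. The median log2 difference was 1.10 in Acot12+/+ and 1.40 in Acot12-/- mice over the collagen genes, and 0.01 and -0.01 over all tested genes. The libraries of the 2 kidneys lay apart for 17 higher and 4 lower genes in Acot12+/+ mice, beside 35.5% higher and 35.8% lower of all tested genes, and for 17 higher and 2 lower genes in Acot12-/- mice, beside 27.8% and 27.6%. The 3 genes that passed the filter through UUO libraries alone were certain to lean upward and are among the 17.

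**Figure D2:**
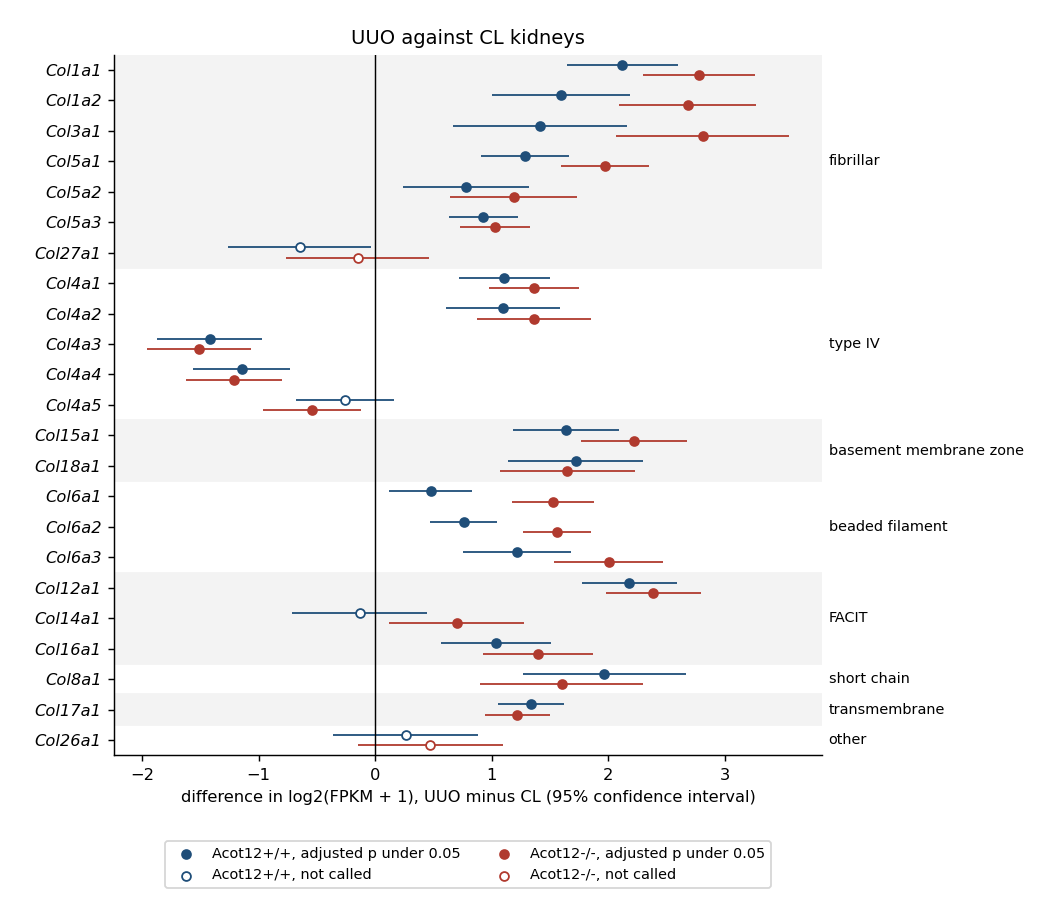
The difference in log2(FPKM + 1) between UUO and CL kidneys (x axis) of each tested collagen gene (rows, by class), in blue for Acot12+/+ and in red for Acot12-/- mice, with bars for the 95% confidence interval and filled points for an adjusted p under 0.05. Filled points lie to the right of 0 for 17 genes in Acot12+/+ and 18 in Acot12-/- mice, and to its left for Col4a3 and Col4a4 in both and for Col4a5 in Acot12-/- mice.

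The fibrillar collagens carried the largest rise in FPKM. Their summed level went from 102 ± 19.5 to 299 ± 70.5 FPKM (SD, n = 3) in Acot12+/+ mice and from 50.2 ± 13.6 to 294 ± 54.4 FPKM in Acot12-/- mice. Of 11 fibrillar genes, 7 were tested and 6 were called higher in both genotypes. Col1a1 and Col1a2, which encode the chains of type I collagen, the main fiber of scar tissue, were among them. Col1a1 stood at 17.2, 18.6 and 12.2 FPKM in the CL libraries and 62.5, 65.4 and 90.5 FPKM in the UUO libraries of Acot12+/+ mice, against 6.62, 7.85 and 11.5 FPKM (CL) and 57.7, 65.0 and 69.1 FPKM (UUO) for the Acot12-/- mice. Every UUO library was above every CL library. Its mean was 4.56 times the CL mean in Acot12+/+ and 7.37 times in Acot12-/- mice, with log2 differences of 2.12 (SE 0.22, limma adjusted p = 2.52e-05) and 2.78 (SE 0.22, limma adjusted p = 2.11e-06). Col1a2 stood at 33.2, 29.5 and 26.2 FPKM in the CL libraries and 85.6, 82.6 and 107 FPKM in the UUO libraries of Acot12+/+ mice, against 9.11, 22.7 and 12.6 FPKM (CL) and 76.2, 94.2 and 116 FPKM (UUO) for the Acot12-/- mice. Here too the UUO and CL libraries did not overlap, and the limma log2 differences were 1.59 (adjusted p = 5.36e-04) and 2.68 (adjusted p = 1.07e-05).

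Col3a1, the chain of the type III collagen of reticular fibers, had the highest mean of the fibrillar genes in all 4 groups, with libraries that overlapped those of Col1a2 in each. It stood at 43.0, 44.7 and 30.0 FPKM in the CL libraries and 84.7, 87.9 and 154 FPKM in the UUO libraries of Acot12+/+ mice, against 8.07, 22.7 and 16.6 FPKM (CL) and 88.0, 104 and 139 FPKM (UUO) for the Acot12-/- mice. UUO replicate 3 was the highest library of both genotypes, and no UUO library overlapped with a CL library. The limma log2 difference was 1.42 (SE 0.34, adjusted p = 0.00506) in Acot12+/+ and 2.81 (SE 0.34, adjusted p = 3.61e-05) in Acot12-/- mice. The ratio of Col3a1 to Col1a1 was 2.41 to 2.50 across the CL and 1.34 to 1.70 across the UUO libraries of Acot12+/+ mice, which did not overlap, and 1.22 to 2.89 across the CL and 1.52 to 2.01 across the UUO libraries of Acot12-/- mice, which did. Type I and type III chains together held 90.7 to 92.5% of the fibrillar FPKM in Acot12+/+ UUO and 80.8 to 86.5% in Acot12+/+ CL libraries.

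The type V chains, minor fibrillar collagens that start type I fibrils, moved the same way at lower levels. Col5a1 stood at 2.75, 3.06 and 2.36 FPKM in the CL libraries and 6.90, 7.62 and 9.89 FPKM in the UUO libraries of Acot12+/+ mice, against 0.703, 0.915 and 1.26 FPKM (CL) and 5.25, 7.38 and 7.50 FPKM (UUO) for the Acot12-/- mice, with no overlap between kidneys and limma log2 differences of 1.29 (adjusted p = 1.20e-04) and 1.97 (adjusted p = 4.27e-06). Col5a2 stood at 7.68, 7.53 and 3.57 FPKM in the CL libraries and 10.9, 9.76 and 12.4 FPKM in the UUO libraries of Acot12+/+ mice, against 3.52, 5.01 and 4.86 FPKM (CL) and 8.57, 12.4 and 13.7 FPKM (UUO) for the Acot12-/- mice. Its rise was smaller, 1.76 times in Acot12+/+ and 2.59 times in Acot12-/- mice. The limma adjusted p of Col5a2 in Acot12+/+ mice, 0.0220, became 0.0921 without Acot12+/+ CL replicate 3, 0.0552 without Acot12+/+ UUO replicate 1 and 0.0736 without Acot12+/+ UUO replicate 3. Col5a3 had means of 0.540 and 1.93 FPKM in Acot12+/+ and 0.253 and 1.57 FPKM in Acot12-/- CL and UUO kidneys, and was called higher in both. It passed the filter through UUO libraries alone and so was certain to lean upward.

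Col27a1, a fibrillar collagen best known from cartilage, was the tested fibrillar gene without a rise. It stood at 6.05, 10.6 and 4.11 FPKM in the CL libraries and 3.72, 3.91 and 3.69 FPKM in the UUO libraries of Acot12+/+ mice, against 7.83, 3.78 and 3.91 FPKM (CL) and 4.79, 4.39 and 3.85 FPKM (UUO) for the Acot12-/- mice. The UUO libraries of Acot12+/+ mice lay below their CL libraries, of which replicate 2 was the highest. The limma log2 difference there, -0.65, had an adjusted p of 0.0769. That p was 0.0449 with same-numbered kidneys paired in the replicate block, 0.0213 without Acot12+/+ CL replicate 3, at a difference of -0.92, and 0.0417 without Acot12-/- CL replicate 1. In Acot12-/- mice the difference was -0.15 (adjusted p = 0.679) and the libraries overlapped.

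**Figure D3:**
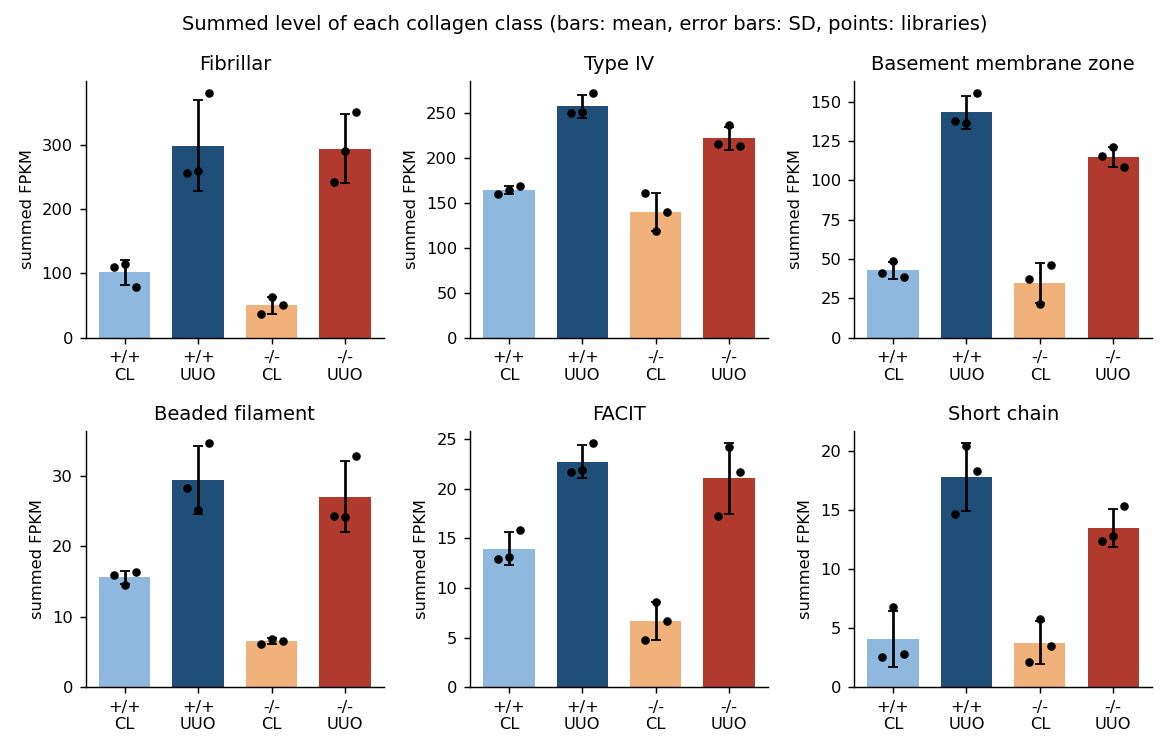
The summed FPKM of 6 collagen classes in the 4 groups, with bars for the mean, error bars for the SD of 3 libraries and points for the libraries. In all 6 panels the UUO libraries of a genotype lie above its CL libraries. The fibrillar, beaded filament and FACIT sums are lower in every Acot12-/- CL than in every Acot12+/+ CL library.

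Type IV collagen split by chain. The broadly used α1 and α2 chains rose after UUO while the α3 and α4 chains fell. Bulk cortex does not show in which basement membranes or cells they fell. Col4a1 stood at 64.7, 70.5 and 71.5 FPKM in the CL libraries and 147, 146 and 156 FPKM in the UUO libraries of Acot12+/+ mice, against 52.4, 34.9 and 58.6 FPKM (CL) and 122, 131 and 118 FPKM (UUO) for the Acot12-/- mice. No UUO library overlapped with a CL library of either genotype, and the limma log2 differences were 1.11 (SE 0.18, adjusted p = 3.69e-04) and 1.36 (SE 0.18, adjusted p = 5.86e-05). Col4a2 stood at 34.5, 38.0 and 39.7 FPKM in the CL libraries and 77.0, 77.5 and 89.4 FPKM in the UUO libraries of Acot12+/+ mice, against 34.9, 17.3 and 33.5 FPKM (CL) and 66.4, 78.3 and 71.1 FPKM (UUO) for the Acot12-/- mice. It rose by nearly the same ratio as Col4a1, 2.17 against 2.17 times in Acot12+/+ and 2.52 against 2.55 times in Acot12-/- mice. Acot12-/- CL replicate 2 was the lowest library for both chains. Both of them join in 1 trimer, and the ratio of Col4a1 to Col4a2 was 1.80 to 1.88 across the CL and 1.75 to 1.91 across the UUO libraries of Acot12+/+ mice, and 1.499 to 2.01 across the CL and 1.66 to 1.84 across the UUO libraries of Acot12-/- mice.

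Col4a3 stood at 31.3, 26.8 and 28.1 FPKM in the CL libraries and 9.37, 10.4 and 10.5 FPKM in the UUO libraries of Acot12+/+ mice, against 34.3, 37.5 and 19.6 FPKM (CL) and 10.7, 9.54 and 8.73 FPKM (UUO) for the Acot12-/- mice. Col4a4 stood at 20.7, 21.3 and 21.3 FPKM in the CL libraries and 8.32, 10.3 and 8.45 FPKM in the UUO libraries of Acot12+/+ mice, against 28.6, 15.5 and 21.6 FPKM (CL) and 7.96, 9.79 and 8.18 FPKM (UUO) for the Acot12-/- mice. For both genes every UUO library was below every CL library, and in Acot12-/- CL kidneys the libraries were spread wider than elsewhere. The mean of Col4a3 in UUO kidneys was 0.351 of the CL mean in Acot12+/+ and 0.317 in Acot12-/- mice, with limma log2 differences of -1.42 (SE 0.21, adjusted p = 1.86e-04) and -1.51 (SE 0.21, adjusted p = 7.59e-05). For Col4a4 they were -1.15 (SE 0.19, adjusted p = 4.65e-04) and -1.21 (SE 0.19, adjusted p = 2.20e-04). After scaling to an equal total FPKM in all libraries, which shifted the median of all genes upward by 0.62 in Acot12+/+ mice, the difference of Col4a4 there was -0.46 (limma adjusted p = 0.0794).

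Col4a5, whose chain joins α3 and α4, stood at 8.44, 7.33 and 7.54 FPKM in the CL libraries and 6.74, 5.88 and 6.38 FPKM in the UUO libraries of Acot12+/+ mice, against 10.6, 13.4 and 6.59 FPKM (CL) and 6.68, 6.36 and 6.30 FPKM (UUO) for the Acot12-/- mice. The UUO libraries of Acot12+/+ mice lay below their CL libraries by little, and the limma log2 difference was -0.26 (95% interval -0.68 to 0.16, adjusted p = 0.292). In Acot12-/- mice it was -0.54 (adjusted p = 0.0329), although CL replicate 3 lay within the UUO range. That p rose to 0.0866 without Acot12-/- CL replicate 1, 0.0828 without CL replicate 2 and 0.0625, 0.0802 and 0.0790 without UUO replicates 1, 2 and 3, and to 0.856 with equal total FPKM. Col4a6, the partner of Col4a5 in a network outside the glomerulus, was not tested and stood at 0.395, 0.364 and 0.258 FPKM in the CL libraries and 0.902, 0.826 and 0.728 FPKM in the UUO libraries of Acot12+/+ mice, against 0.208, 0.329 and 0.201 FPKM (CL) and 0.823, 1.43 and 0.564 FPKM (UUO) for the Acot12-/- mice, higher in every UUO than in every CL library. Col4a3, Col4a4 and Col4a5 together made up 35.1 ± 2.33% of the type IV FPKM (SD, n = 3) in Acot12+/+ CL and 9.91 ± 0.653% in Acot12+/+ UUO kidneys, and 45.2 ± 10.8% and 11.2 ± 0.516% in Acot12-/- mice.

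**Figure D4:**
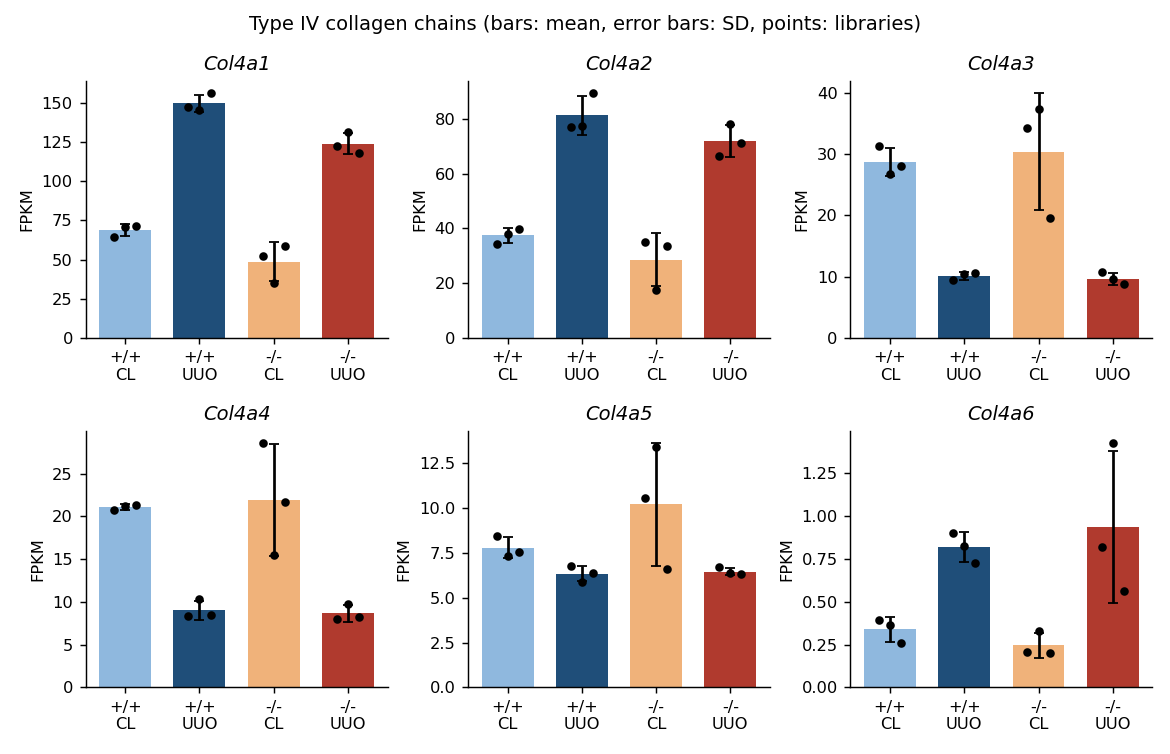
The FPKM of the 6 type IV chains in the 4 groups, with bars for the mean, error bars for the SD of 3 libraries and points for the libraries. Col4a1, Col4a2 and Col4a6 are higher and Col4a3 and Col4a4 lower in every UUO than in every CL library of the same genotype, and Col4a5 overlaps between the kidneys of Acot12-/- mice.

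Podocytes, the cells that make the α3, α4 and α5 network of the glomerulus, were still seen by their markers. Their 6 markers summed to 71.5 to 103 FPKM in Acot12+/+ CL and 67.4 to 85.0 FPKM in Acot12+/+ UUO libraries, which overlapped, and to 89.2 to 125 FPKM and 81.9 to 97.8 FPKM in Acot12-/- libraries, which overlapped as well. No marker was at 0 in all libraries of a group. Of the 6, 2 were called higher and 1 lower in both genotypes. Beside them, 23.6% of all tested genes were higher and 23.9% lower in Acot12+/+, and 26.6% and 27.2% in Acot12-/- mice. With equal total FPKM 4 were higher and none lower in Acot12+/+ and 3 higher and 1 lower in Acot12-/- mice. That scaling moved the median of all tested genes to 0.62 in Acot12+/+ and 0.46 in Acot12-/- mice. It called 64.4% and 58.2% of them, in either direction. The part of these cells in the fall of Col4a3 and Col4a4 was not tested. In bulk cortex, fewer cells of a type and less RNA per cell cannot be told apart.

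The type IV genes lie head to head in pairs that share the stretch between their starts. Col4a1 and Col4a2 rose and Col4a3 and Col4a4 fell as pairs, while Col4a6 and Col4a5 did not move together. On chromosome 8, Col4a1 and Col4a2 start on opposite strands with 22 bases of overlap between their exons, 0.333% of the exonic bases of Col4a1 and 0.341% of those of Col4a2 (GENCODE vM21, GRCm38). On chromosome 1, 71 bases lie between the first exons of Col4a4, on the minus strand, and Col4a3, on the plus strand, and on chromosome X 1308 bases lie between Col4a6 and Col4a5. The library kit kept the strand, but how the counting used it is not given in the sources used here, so the few reads on shared bases cannot be assigned. The interval from which the pair that fell is read both ways is shown beside the 100 bases upstream of Col3a1 and Col5a1, both of which rose. The sequences are those of RefSeq on the plus strand of GRCm38.p6, at chr1:82586850-82586920, chr1:45311438-45311537 and chr2:27886325-27886424. Their GC content is 69.0%, 43.0% and 71.0%. Capitals mark GGGCGG, the GC box.
Col4a4 to Col4a3: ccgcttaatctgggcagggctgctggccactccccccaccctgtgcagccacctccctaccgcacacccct
Upstream of Col3a1: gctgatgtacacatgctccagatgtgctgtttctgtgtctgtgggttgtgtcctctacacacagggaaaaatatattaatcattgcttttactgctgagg
Upstream of Col5a1: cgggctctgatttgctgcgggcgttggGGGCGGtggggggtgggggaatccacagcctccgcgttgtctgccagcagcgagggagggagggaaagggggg

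RefSeq promoter windows, 250 bases before to 50 after the start, were at hand for 35 of the 44 genes, as 38 windows. Searched on both strands, GGGCGG was in 60.5% of the 38 windows and in 35.7% of the 32851 windows of all genes. CCAAT was in 34.2% against 37.4%, TATAAA in 13.2% against 13.6% and TGACTCA, the site of AP-1, in 2.63% against 5.20%. None of these 4 motifs contains another. The interval between Col4a4 and Col4a3 held none of them, nor did the 100 bases upstream of Col3a1, which says only that these letters are not in these windows.

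Collagens of the basement membrane zone rose with the α1 and α2 chains. Col18a1, whose C-terminal fragment is endostatin, stood at 33.5, 41.9 and 30.3 FPKM in the CL libraries and 113, 115 and 123 FPKM in the UUO libraries of Acot12+/+ mice, against 34.5, 16.9 and 42.2 FPKM (CL) and 98.3, 99.5 and 83.7 FPKM (UUO) for the Acot12-/- mice. It was higher in every UUO than in every CL library, by 3.33 times in Acot12+/+ (limma adjusted p = 2.94e-04) and 3.01 times in Acot12-/- mice (limma adjusted p = 2.72e-04). Col15a1, its close relative that links basement membranes to the stroma, stood at 7.58, 6.40 and 7.97 FPKM in the CL libraries and 23.9, 20.5 and 31.2 FPKM in the UUO libraries of Acot12+/+ mice, against 2.48, 4.49 and 3.91 FPKM (CL) and 16.4, 20.8 and 23.8 FPKM (UUO) for the Acot12-/- mice. The limma log2 differences of Col15a1 were 1.64 (adjusted p = 8.14e-05) and 2.22 (adjusted p = 6.65e-06), again without overlap. Col7a1, the anchoring fibril collagen under stratified epithelia, was not tested and had means of 0.201 ± 0.0696 and 0.871 ± 0.0934 FPKM in Acot12+/+ and 0.0637 ± 0.0446 and 0.782 ± 0.257 FPKM in Acot12-/- CL and UUO kidneys (SD, n = 3).

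Type VI collagen, the beaded filament around cells, rose in both genotypes, with log2 differences that were larger in Acot12-/- mice but not called as an interaction. Col6a1 stood at 6.58, 6.57 and 7.68 FPKM in the CL libraries and 8.71, 9.20 and 12.5 FPKM in the UUO libraries of Acot12+/+ mice, against 2.14, 3.17 and 3.13 FPKM (CL) and 9.30, 9.71 and 10.7 FPKM (UUO) for the Acot12-/- mice. Col6a2 stood at 4.61, 4.15 and 4.17 FPKM in the CL libraries and 7.64, 7.37 and 9.04 FPKM in the UUO libraries of Acot12+/+ mice, against 2.08, 1.54 and 1.90 FPKM (CL) and 7.08, 6.73 and 8.32 FPKM (UUO) for the Acot12-/- mice. Col6a3, the long chain that limits assembly of the filament, stood at 4.25, 3.53 and 3.89 FPKM in the CL libraries and 10.7, 8.30 and 12.3 FPKM in the UUO libraries of Acot12+/+ mice, against 1.11, 1.98 and 1.20 FPKM (CL) and 7.20, 7.19 and 12.3 FPKM (UUO) for the Acot12-/- mice. For all 3 chains no UUO library overlapped with a CL library of the same genotype, and all 3 were called higher in both genotypes. The limma log2 differences in Acot12+/+ mice were 0.47 (adjusted p = 0.0301) for Col6a1, 0.76 (adjusted p = 6.51e-04) for Col6a2 and 1.22 (adjusted p = 6.81e-04) for Col6a3. In Acot12-/- mice they were 1.52, 1.56 and 2.00, with adjusted p of 1.50e-05, 3.26e-06 and 1.53e-05. The call of Col6a1 in Acot12+/+ mice was lost without Acot12+/+ CL replicate 1 (adjusted p = 0.0900) or 2 (0.0843) and without Acot12+/+ UUO replicate 3 (0.138). The ratio of Col6a3 to Col6a1 was higher after UUO, 0.507 to 0.647 in Acot12+/+ CL against 0.903 to 1.23 in Acot12+/+ UUO and 0.383 to 0.625 against 0.740 to 1.15 in Acot12-/- libraries. Col6a4 was not tested, with 0.022 to 0.077 FPKM in CL and 0.208 to 1.47 FPKM in UUO libraries.

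Of the 3 tested FACITs, collagens on the surface of fibrils, 2 rose in Acot12+/+ and 3 in Acot12-/- mice. Col12a1 rose most, with CL libraries at 0.45 to 0.89 FPKM and UUO libraries at 5.50 to 10.5 FPKM. Its mean was 9.77 times the CL mean in Acot12+/+ and 12.3 times in Acot12-/- mice, the largest ratios of the tested genes with a mean of at least 0.5 FPKM in CL kidneys, and the limma adjusted p was 8.33e-06 and 2.02e-06. Col12a1 passed the filter through UUO libraries alone, so it was certain to lean upward and these p-values are no separate support for a rise. Col16a1 had means of 2.82 ± 0.511 and 6.79 ± 0.476 FPKM in Acot12+/+ and 1.59 ± 0.601 and 5.87 ± 1.73 FPKM in Acot12-/- CL and UUO kidneys (SD, n = 3), and was called higher in both. Col14a1 stood at 8.87, 8.29 and 12.0 FPKM in the CL libraries and 7.96, 7.91 and 10.4 FPKM in the UUO libraries of Acot12+/+ mice, against 2.20, 6.63 and 3.74 FPKM (CL) and 7.30, 5.81 and 7.76 FPKM (UUO) for the Acot12-/- mice. In Acot12+/+ mice its kidneys overlapped, with a limma log2 difference of -0.13 (95% interval -0.71 to 0.45, adjusted p = 0.703). In Acot12-/- mice the libraries overlapped too, at a limma log2 difference of 0.70 (adjusted p = 0.0422), and the call was lost in 8 of 12 rounds that left out a library, among them those without Acot12-/- CL replicate 1 or 3 or Acot12-/- UUO replicate 1 or 3 (limma adjusted p of 0.0828 to 0.177), and without Acot12+/+ CL replicate 1 or 2 or Acot12+/+ UUO replicate 1 or 2 (0.0504 to 0.0548).

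Col8a1, a short-chain collagen of vessel walls and endothelium, stood at 2.34, 6.64 and 2.67 FPKM in the CL libraries and 13.8, 19.6 and 17.3 FPKM in the UUO libraries of Acot12+/+ mice, against 2.02, 5.67 and 3.47 FPKM (CL) and 11.7, 12.0 and 14.1 FPKM (UUO) for the Acot12-/- mice. CL replicate 2 was the highest CL library of both genotypes and stayed below the UUO libraries. The limma log2 differences were 1.96 (adjusted p = 4.08e-04) and 1.60 (adjusted p = 0.00120). Col8a2, its partner, was not tested and had means of 0.158 ± 0.0520 and 0.687 ± 0.156 FPKM in Acot12+/+ and 0.0317 ± 0.0146 and 0.635 ± 0.153 FPKM in Acot12-/- CL and UUO kidneys. Col26a1 had group means of 1.60 to 2.66 FPKM, overlapping libraries and no call, at limma log2 differences of 0.26 (95% interval -0.36 to 0.88) and 0.47 (95% interval -0.15 to 1.10).

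Col17a1, the transmembrane collagen of hemidesmosomes in basal epithelial cells, was nearly absent from CL kidneys. Its CL libraries held 0 to 0.03 FPKM and its UUO libraries 1.02 to 1.84 FPKM, and it was called higher in both genotypes (limma adjusted p = 1.68e-05 and 1.46e-05). Since Col17a1 passed the filter through UUO libraries alone, it was certain to lean upward and these p-values are no separate support for a rise. A fold against such CL levels would rest on a few fragments and is not given. The 7 urothelium markers summed to 4.65 to 39.0 FPKM in Acot12+/+ CL, 10.4 to 108 FPKM in Acot12+/+ UUO, 1.33 to 13.8 FPKM in Acot12-/- CL and 67.8 to 110.1 FPKM in Acot12-/- UUO libraries, overlapping between the kidneys of Acot12+/+ mice and not between those of Acot12-/- mice, with no marker at 0 in all libraries of a group. Of the 7, 2 were called higher in Acot12+/+ and 7 in Acot12-/- mice, beside 23.6% and 26.6% of all tested genes. Their part in the rise of Col17a1 was not tested. Col23a1, another transmembrane collagen, was not tested and had its highest library at 1.00 FPKM in Acot12+/+ CL, with means of 0.632 ± 0.323 and 0.222 ± 0.0480 FPKM in Acot12+/+ and 0.769 ± 0.175 and 0.251 ± 0.0638 FPKM in Acot12-/- CL and UUO kidneys.

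The 10 fibroblast and pericyte markers summed to 127 to 146 FPKM in Acot12+/+ CL, 256 to 327 FPKM in Acot12+/+ UUO, 40.7 to 78.7 FPKM in Acot12-/- CL and 237 to 321 FPKM in Acot12-/- UUO libraries, none of them at 0 in all libraries of a group. Of the 10, 6 were called higher after UUO in Acot12+/+ and 9 in Acot12-/- mice, and none lower, beside 23.6% and 26.6% higher of all tested genes. The 6 macrophage markers summed to 105 to 119 and 330.4 to 386 FPKM in Acot12+/+ and 40.1 to 84.5 and 324 to 551 FPKM in Acot12-/- CL and UUO libraries. Proximal tubule markers moved the other way, with 7 of 8 called lower in Acot12+/+ and 8 of 8 in Acot12-/- mice, beside 23.9% and 27.2% lower of all tested genes, and UUO sums of 319 to 563 and 200.3 to 745 FPKM. The part of these cells in the rise of the fibrillar genes was not tested.

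Whether the mutation of Acot12 changed collagen expression in obstructed kidneys was asked by setting Acot12-/- UUO against Acot12+/+ UUO kidneys. None of the 23 genes was called by limma, and none had an unadjusted p under 0.05, beside 0.0151% of all tested genes called and 2.36% with such a p. The median log2 difference was -0.13 over the collagen genes and 0.00 over all tested genes. Col1a1 differed by -0.17 (95% interval -0.65 to 0.31), Col3a1 by 0.05 (-0.70 to 0.79), Col4a1 by -0.27 (-0.66 to 0.12) and Col6a1 by -0.02 (-0.37 to 0.34) on the log2 scale. These intervals leave room for differences in either direction, the widest of the 4 being that of Col3a1. Col4a1, Col14a1 and Col18a1 were lower in every Acot12-/- UUO than in every Acot12+/+ UUO library, 3 of 23 genes beside 6.48% of all tested genes. The type IV sum was 213 to 237 FPKM in Acot12-/- UUO against 250 to 272 FPKM in Acot12+/+ UUO libraries. For the basement membrane zone it was 108 to 121 against 136 to 155 FPKM. The sums of the other classes and of all collagen genes overlapped, and no sum was tested. As a share of the FPKM of all genes, collagen genes did not overlap. They held 0.109 to 0.135% in Acot12-/- UUO against 0.139 to 0.159% in Acot12+/+ UUO libraries, also not tested.

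In the contralateral kidneys, 7 of the 23 collagen genes were lower in Acot12-/- than in Acot12+/+ mice and none was higher, beside 4.48% of all tested genes called, 3.36% lower and 1.12% higher. The 7 were Col3a1, Col5a1, Col6a1, Col6a2, Col6a3, Col14a1 and Col15a1, so that all 3 tested type VI chains and 2 of 7 tested fibrillar genes were among them. The libraries of 12 genes lay apart in this direction, beside 9.73% of all tested genes, and 11 genes had an unadjusted p under 0.05, beside 17.3%. The median log2 difference was -0.44 over the collagen genes and 0.01 over all tested genes. All 7 genes called lower here were also called higher after UUO in Acot12-/- mice, as were 18 of the 23 tested. Both comparisons use the same Acot12-/- CL libraries, so low values there push them in these directions together. The overlap is no separate support for either.

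**Figure D5:**
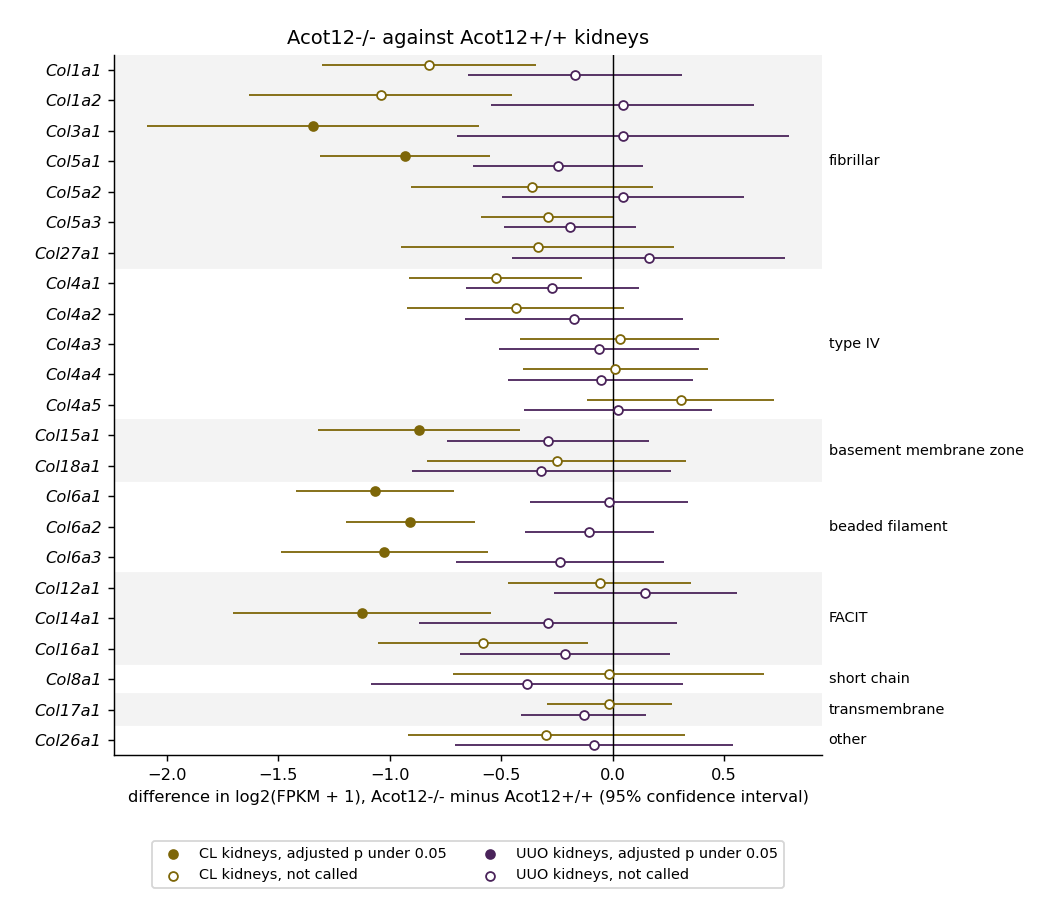
The difference in log2(FPKM + 1) between Acot12-/- and Acot12+/+ mice (x axis) of each tested collagen gene (rows, by class), in ochre for CL and in purple for UUO kidneys, with bars for the 95% confidence interval and filled points for an adjusted p under 0.05. The 7 filled points are CL differences to the left of 0, and every UUO interval crosses 0.

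Col6a1 and Col6a2 were lowest in p. Col6a1 went from 6.94 ± 0.639 FPKM in Acot12+/+ CL to 2.81 ± 0.586 FPKM in Acot12-/- CL kidneys (SD, n = 3), a limma log2 difference of -1.07 (SE 0.16, adjusted p = 0.00625). Col6a2 went from 4.31 ± 0.259 to 1.84 ± 0.276 FPKM, a difference of -0.91 (SE 0.13, adjusted p = 0.00585). Both calls held in all 12 rounds that left out a library and were lost when only the CL groups were fitted (adjusted p = 0.0761). In that fit 1 gene of all tested genes was called. Col6a3 differed by -1.02 (adjusted p = 0.0203) and Col5a1, at 2.72 against 0.96 FPKM, by -0.93 (adjusted p = 0.0133). Leaving out Acot12+/+ CL replicate 1 or 2 or Acot12-/- CL replicate 1 raised the adjusted p of Col5a1 to 0.0537 to 0.0596. For Col6a3 these 3 and Acot12+/+ CL replicate 3 raised it to 0.0534 to 0.0848.

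Col3a1, Col14a1 and Col15a1 rested on less. Col3a1 had a mean of 39.2 ± 8.03 FPKM in Acot12+/+ CL and 15.8 ± 7.35 FPKM in Acot12-/- CL kidneys and a limma log2 difference of -1.34 (SE 0.34, adjusted p = 0.0466), which became 0.0507 in the replicate block. The call held in 2 of 12 rounds, those without Acot12+/+ UUO replicate 3 and without Acot12-/- CL replicate 2, and the adjusted p in the others was 0.0588 to 0.162. Col14a1 differed by -1.12 (adjusted p = 0.0343) and kept its call in 3 rounds, those without Acot12+/+ UUO replicate 3, Acot12-/- CL replicate 2 and Acot12-/- UUO replicate 2, with adjusted p of 0.0503 to 0.127 in the others. Col15a1 differed by -0.87 (adjusted p = 0.0365) and lost it in 6 rounds, those without an Acot12+/+ CL library, Acot12+/+ UUO replicate 1, Acot12-/- CL replicate 1 or Acot12-/- UUO replicate 2 (0.0509 to 0.132). Just outside the threshold lay Col1a2 at -1.04 (adjusted p = 0.0512) and Col1a1 at -0.82 (adjusted p = 0.0570). Without Acot12-/- CL replicate 2, the library that stood apart, both passed, Col1a2 at -1.38 (0.00275) and Col1a1 at -0.78 (0.0415), and 9 collagen genes were called, beside 22.1% of all tested genes in place of 4.48%. Without Acot12-/- CL replicate 3, Col1a1 passed at -1.03 (0.0204) and Col4a1 at -0.67 (0.0495).

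The count of 7 was itself unsteady. It was 2 without Acot12+/+ CL replicate 1 or 2 or Acot12-/- CL replicate 1, 3 without Acot12+/+ CL replicate 3 and 4 without Acot12+/+ UUO replicate 1. Calls over all tested genes fell in these rounds too, from 4.48% to 1.44%, 2.04%, 1.41%, 1.93% and 2.93% in the same order. Summed over the class, the fibrillar genes held 79.2 to 115 FPKM in Acot12+/+ CL and 36.2 to 63.3 FPKM in Acot12-/- CL libraries. The type VI genes held 14.6 to 16.3 against 6.10 to 6.92 FPKM, whereas the type IV genes overlapped at 160.0 to 168 against 119 to 161 FPKM. Col4a3, Col4a4, Col8a1, Col12a1 and Col17a1 differed by 0.03, 0.01, -0.02, -0.06 and -0.02 on the log2 scale and were not called, the widest 95% interval being that of Col8a1 (-0.72 to 0.68).

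Summed markers of vascular and stromal cells were lower in these kidneys too. The 8 endothelial markers summed to 137 to 217 FPKM in Acot12+/+ CL and 48.1 to 73.1 FPKM in Acot12-/- CL libraries, with 6 of 8 called lower, beside 3.36% of all tested genes. Of the fibroblast and pericyte markers 2 of 10 and of the macrophage markers 2 of 6 were called lower, with the sums given above not overlapping. All 8 proximal tubule markers had a positive log2 difference, and none was called. Urothelium and mesothelium markers, 7 and 3 in number, gave no call. Their part in the lower collagen levels was not tested.

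Whether UUO raised collagen expression by a different factor in the 2 genotypes was asked by the interaction term. None of the 23 genes was called by limma, and 7 had an unadjusted p under 0.05 (Col1a2, Col3a1, Col5a1, Col6a1, Col6a2, Col6a3 and Col14a1), beside 0.106% of all tested genes called and 10.5% with such a p. The difference was positive, a larger rise in Acot12-/- mice, for 17 of 23 genes, with a median of 0.37 against -0.01 over all tested genes. It was 1.05 for Col6a1 (95% interval 0.55 to 1.55, limma adjusted p = 0.0948), 0.80 for Col6a2 (0.39 to 1.21, 0.110), 1.39 for Col3a1 (0.34 to 2.45, 0.283) and 1.08 for Col1a2 (0.25 to 1.92, 0.298). This term holds the CL difference between genotypes with its sign turned, and so shares its libraries. For Col4a3 and Col4a4 it was -0.09 (-0.73 to 0.54) and -0.07 (-0.65 to 0.52). Without Acot12-/- CL replicate 2, 5 genes were called: Col1a2 at 1.42 (limma adjusted p = 0.0214), Col3a1 at 1.69 (0.0494), Col6a1 at 1.12 (0.0235), Col6a2 at 0.72 (0.0307) and Col14a1 at 1.16 (0.0372). In that fit 6.80% of all tested genes were called in place of 0.106%.

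Genes that make, carry and fasten collagen were followed in 7 lists, of which 72 of 83 genes were tested. Of all tested genes, 23.6% were higher after UUO in Acot12+/+ and 26.6% in Acot12-/- mice. Of the enzymes that cross-link collagen, 6 of 7 were higher and none lower in each genotype, although Loxl4 lost its call in Acot12+/+ mice without Acot12+/+ CL replicate 1 or 2 or Acot12+/+ UUO replicate 2 or 3 (limma adjusted p of 0.0592 to 0.102). Lox, the lysyl oxidase that starts cross-links of fibrils, went from 1.83 ± 0.164 to 14.7 ± 2.98 FPKM in Acot12+/+ (SD, n = 3; limma adjusted p = 1.38e-05) and from 1.45 ± 0.811 to 20.2 ± 4.21 FPKM in Acot12-/- mice (limma adjusted p = 1.19e-06). Tgm2, a transglutaminase, was the highest of the list at 83.3 ± 17.1 and 122 ± 8.24 FPKM in Acot12+/+ and was not called (limma adjusted p = 0.0740 and 0.729), although it passed in Acot12+/+ mice without Acot12-/- CL replicate 2 (0.0101) or 3 (0.0330). Of the collagen receptors, 7 of 7 tested were higher in Acot12+/+ and 6 of 7 in Acot12-/- mice. Ddr2, a receptor kinase for fibrillar collagen, lost its call in Acot12+/+ mice in 7 of 12 rounds, those without an Acot12+/+ CL library, Acot12+/+ UUO replicate 1 or 3 or Acot12-/- UUO replicate 2 or 3 (limma adjusted p of 0.0541 to 0.161). Itgb1 lost its call in Acot12-/- mice without Acot12-/- CL replicate 1 or 3 or Acot12-/- UUO replicate 2 or 3 (0.0517 to 0.104). The list was led in level by Adgrg1, an adhesion receptor for type III collagen, at 56.6 and 203 FPKM, and by the integrin subunit Itgb1 at 96.7 and 145 FPKM in Acot12+/+ CL and UUO kidneys. Non-collagen partners in basement membranes were higher for 7 of 11 in Acot12+/+ and 9 of 11 in Acot12-/- mice, and lower for none. Among them the laminin chain Lamb1 had 28.2 and 45.0 FPKM and the proteoglycan Agrn 13.7 and 56.6 FPKM in Acot12+/+ CL and UUO kidneys.

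Genes that act on collagen inside the cell went in both directions, beside 23.6% higher and 23.9% lower of all tested genes in Acot12+/+ and 26.6% and 27.2% in Acot12-/- mice. Of 14 tested hydroxylases, glycosyltransferases and their partners, 6 were higher and 3 lower in Acot12+/+, and 7 higher and 5 lower in Acot12-/- mice. P4hb, protein disulfide isomerase and β subunit of prolyl 4-hydroxylase, went from 293 ± 34.8 to 211 ± 23.9 FPKM in Acot12+/+ mice (limma adjusted p = 0.0605, and 0.0184 in the replicate block) and from 361 ± 78.5 to 218 ± 21.7 FPKM in Acot12-/- mice (limma adjusted p = 0.00838). Ppib, a prolyl isomerase, was lower in both (limma adjusted p = 0.0303 and 8.47e-04). Of 14 chaperones and export proteins 3 were higher and 3 lower in Acot12+/+, and 6 higher and 6 lower in Acot12-/- mice. Serpinh1, the collagen chaperone HSP47, rose from 90.1 ± 3.07 to 210.4 ± 6.96 FPKM in Acot12+/+ mice (limma adjusted p = 3.08e-04), and Sparc, a collagen-binding matricellular protein, from 196 ± 14.8 to 309.9 ± 18.4 FPKM (limma adjusted p = 0.0195). The call of Ppib in Acot12+/+ mice was lost without Acot12+/+ CL replicate 1 or 3 or Acot12+/+ UUO replicate 1 or 2 (0.0925 to 0.101), and that of Sparc without Acot12+/+ CL replicate 1 or 3 or Acot12+/+ UUO replicate 2 or 3 (0.0503 to 0.0648). P4hb passed in Acot12+/+ mice without Acot12-/- CL replicate 2 (0.0122) or 3 (0.0427). With equal total FPKM the median of all tested genes moved to 0.62 in Acot12+/+ and 0.46 in Acot12-/- mice. That scaling called 64.4% and 58.2% of them, in either direction. Both lists moved upward with it. The enzymes had 8 higher and 1 lower in each genotype, and the chaperones 9 and 1 or 7 and 1. P4hb and Ppib then turned to 0.26 and 0.29 in Acot12+/+ mice. Among proteases that trim procollagen and their enhancers 2 of 6 tested were higher and 2 lower in each genotype. The 2 lower were Mep1a and Mep1b, meprins of the proximal tubule brush border, which dropped from 752 to 181 and from 141 to 12.2 FPKM in Acot12+/+ mice.

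Of 13 tested proteoglycans and glycoproteins that coat fibrils, 6 were higher and 2 lower in Acot12+/+, and 10 higher and 1 lower in Acot12-/- mice. With equal total FPKM these counts were 10 and 0, and 11 and 1. That scaling called 64.4% and 58.2% of all tested genes, in either direction. Bgn, the proteoglycan biglycan, went from 86.8 ± 8.55 to 176 ± 20.4 FPKM in Acot12+/+ and from 34.0 ± 5.18 to 177 ± 25.8 FPKM in Acot12-/- mice, with an interaction of 1.33 (limma adjusted p = 0.0610, and 0.0384 in the replicate block). Dcn, the proteoglycan decorin, had 47.0 ± 6.72 and 53.1 ± 8.54 FPKM in Acot12+/+ (limma adjusted p = 0.744) and 20.2 ± 15.9 and 71.7 ± 18.6 FPKM in Acot12-/- mice (limma adjusted p = 0.00109). In the CL kidneys, 15 of the 72 tested genes of the 7 lists were lower in Acot12-/- than in Acot12+/+ mice and none was higher, beside 3.36% lower and 1.12% higher of all tested genes. They were P3h3, Fkbp10, Rcn3, Sparc, Loxl1, Loxl4, Bgn, Fn1, Prelp, Tnxb, Hspg2, Lama4, Lamb2, Ddr2 and Mrc2. Of these, Rcn3, Bgn, Prelp, Hspg2 and Mrc2 kept the call in all 12 rounds that left out a library, and the other 10 lost it in 1 to 9 rounds. All 15 lost it when only the CL groups were fitted (adjusted p of 0.0586 to 0.237). Fn1, fibronectin, stood at 7.29 ± 1.79 against 3.28 ± 0.539 FPKM there (limma adjusted p = 0.0161; 0.0726 without Acot12+/+ CL replicate 1 and 0.0634 without Acot12-/- CL replicate 1), Hspg2, perlecan, at 5.95 ± 0.473 against 2.15 ± 0.883 FPKM (limma adjusted p = 0.0107) and Mrc2, an endocytic collagen receptor, at 8.10 ± 0.728 against 3.12 ± 0.722 FPKM (limma adjusted p = 0.00880). No gene of the 7 lists was called between genotypes in UUO kidneys, where 2 of the 72 had an unadjusted limma p under 0.05. Over all tested genes 0.0151% were called and 2.36% had such a p. After UUO in Acot12+/+ mice the replicate block moved the limma adjusted p of Hspg2 from 0.0330 to 0.0534 and that of Rcn3, a chaperone of the secretory pathway, from 0.0503 to 0.0172. Leaving out any Acot12+/+ library moved that of Hspg2 to 0.0533 to 0.106, and leaving out any Acot12-/- CL library that of Rcn3 to 0.00388 to 0.0389. The interaction of Bgn passed without Acot12-/- CL replicate 2 (0.0133) or 3 (0.0301).

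The 16 collagen genes under 0.5 FPKM in all 4 groups were Col2a1, Col6a5, Col6a6, Col9a1, Col9a2, Col9a3, Col10a1, Col11a1, Col11a2, Col13a1, Col19a1, Col20a1, Col22a1, Col24a1, Col25a1 and Col28a1. They include the cartilage collagens of types II, IX, X and XI. Their highest library was Acot12-/- CL replicate 1 for Col6a6, at 0.710 FPKM, and Col9a1 was listed at 0 in all 12 libraries. None passed the filter, and at this depth their levels rest on few fragments. Within these limits Col13a1, a transmembrane collagen, had means of 0.42 and 0.37 FPKM in Acot12+/+ and 0.12 and 0.42 FPKM in Acot12-/- CL and UUO kidneys. Col19a1 was higher in CL kidneys, at 0.319, 0.281 and 0.385 FPKM in Acot12+/+ CL and 0.110, 0.055 and 0.059 FPKM in Acot12-/- CL libraries, against at most 0.044 FPKM in UUO libraries. Col6a6 showed the same order, with means of 0.36 and 0.08 FPKM in Acot12+/+ and 0.38 and 0.04 FPKM in Acot12-/- CL and UUO kidneys. Col11a1, which co-assembles with type V collagen, had 0.20 to 0.42 FPKM in UUO and 0 to 0.15 FPKM in CL libraries.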

How the data were processed

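RNA sequencing of mouse kidney cortex was analysed in 12 libraries, 3 in each of 4 groups taken from the titles. The deposited tables give FPKM per gene, the unit being inferred from the values since the headers do not name it, and the authors' processing notes name mm10 and edgeR without a role. Trimming, mapping and normalization were done by a service provider with an aligner not given in the sources used here. Raw counts were not used here, so no count model was fitted. The depth read from low values is approximate and sets the precision of genes under 0.5 FPKM.

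Genes with at least 1 FPKM in at least 3 libraries were tested, except 28 genes listed at 0 beside at least 10 FPKM in the same group, which left 13243. One limma 3.58.1 model (R 4.3.3) of log2(FPKM + 1) held all 4 groups, with a variance trend, for 5 comparisons: the effect of UUO within either genotype, the effect of genotype within either kidney, and their interaction. Differences are on the log2(FPKM + 1) scale, which understates changes of low genes. The fit was tried on simulated data with independent noise and known changes in a single group. That setting is simpler than these libraries, and its outcome is not reported here. Python 3.11.15 with pandas 2.3.3, numpy 2.4.6 and matplotlib 3.10.9 made the summaries and plots.

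Values of every library are given for collagen genes with a mean of at least 5 FPKM, for Col4a6 and for those called between genotypes. Of each pathway list the 2 highest in mean and those called between genotypes were considered. The collagen genes and lists were chosen with earlier results of these data known. Same-numbered CL and UUO kidneys gave correlations of deviations of 0.134, 0.364 and 0.335 in Acot12+/+ and 0.322, 0.186 and 0.318 in Acot12-/- mice. Kidneys of different numbers gave -0.363 to 0.139 in Acot12+/+ and -0.177 to -0.075 in Acot12-/- mice. The labels do not say that same-numbered kidneys came from 1 mouse. The main fit therefore held no replicate block, and a fit with the replicate block was an alternative. Others were a pseudocount of 0.1, no filter, a filter of 0.5 FPKM, median-ratio or equal-total scaling, only the groups compared, no variance trend, a fold of 2 and leaving out each library in turn. Exon positions are those of GENCODE vM21 and promoters those of RefSeq. Single values of some marker genes are not reported here.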

Additional observations from a re-analysis of the deposited data

Results flagged for a closer look

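The response to UUO was called different between the genotypes, by the interaction term of limma, for 1 gene of the collagen pathway lists and 1 gene of the marker lists. Prelp, a leucine-rich proteoglycan that anchors collagen to basement membranes, stood at 6.42 ± 1.05 (CL) and 5.90 ± 1.13 FPKM (UUO; SD, n = 3) for Acot12+/+ mice and 1.95 ± 0.308 (CL) and 5.87 ± 0.295 FPKM (UUO) for Acot12-/- mice. Its UUO difference was -0.11 in Acot12+/+ and 1.22 in Acot12-/- mice on the log2 scale, and the interaction was 1.33 (95% interval 0.86 to 1.80, limma adjusted p = 0.0458). Tie1, a receptor tyrosine kinase of endothelial cells, stood at 8.28 ± 1.40 (CL) and 7.97 ± 0.945 FPKM (UUO; SD, n = 3) for Acot12+/+ mice and 3.38 ± 0.281 (CL) and 10.04 ± 0.448 FPKM (UUO) for Acot12-/- mice. Its UUO difference was -0.04 in Acot12+/+ and 1.33 in Acot12-/- mice, and the interaction was 1.38 (95% interval 0.95 to 1.81, limma adjusted p = 0.0287). Each of the 2 calls was kept in 2 of 12 rounds that left out a library, those without Acot12-/- CL replicate 2 and without Acot12-/- CL replicate 3. Over all alternatives the limma adjusted p ran from 0.00967 to 0.270 for both genes, the highest after scaling to an equal total FPKM, and the direction was the same in each. Of 21 alternatives, 15 lost the call of Prelp and 12 that of Tie1. Prelp lost it with no filter (limma adjusted p = 0.0861), a filter of 0.5 FPKM (0.0525), median-ratio scaling (0.0518) and no variance trend (0.0521). Tie1 lost it with no filter (0.0674).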

How the results depend on the processing

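Of the 23 tested collagen genes, 21 were called after UUO in Acot12-/- mice, and with no filter on low values, which let 43 collagen genes be tested, 33 were called (28 higher and 5 lower). The 7 calls between genotypes in CL kidneys became 0 when only the groups compared were fitted and 4 with a fold of at least 2 as well, and ran from 2 to 9 over the rounds that left out a library. The interaction gave 0 calls, and 0 to 5 over those rounds. After UUO those rounds gave 17 to 20 calls in Acot12+/+ and 19 to 21 in Acot12-/- mice, and 0 between genotypes in UUO kidneys. Calls over all tested genes also varied over those rounds. They ran from 1.41% to 22.1% between genotypes in CL kidneys and from 0 to 6.80% for the interaction. After UUO they ran from 37.2% to 61.9% in Acot12+/+ and from 44.1% to 63.5% in Acot12-/- mice. An equal total FPKM in all libraries moved the median of all genes to 0.62 in Acot12+/+ and to 0.46 in Acot12-/- mice. Collagen calls were then at 20 higher and 1 lower and at 21 higher and 2 lower, beside 64.4% and 58.2% of all tested genes called. This scaling also acted on single genes. It reversed P4hb to 0.26 (adjusted p = 0.281 by limma) and Ppib to 0.29 (adjusted p = 0.203 by limma) in Acot12+/+ mice. The replicate block gave 20, 21, 0, 6 and 0 calls in the 5 comparisons and, beside Col27a1, Col3a1, P4hb, Rcn3, Hspg2 and Bgn, changed no other call of the genes named. No collagen difference with an unadjusted limma p under 0.05 in the main fit reversed. The other collagen differences were not followed through the alternatives. The cause of these shifts was not tested. Depth limits the 16 genes under 0.5 FPKM, which did not pass the filter.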
